A study of Mus musculus with 18 samples.

Results

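The 8 genes described here encode enzymes that make or clean the deoxynucleotides (dNTPs) from which DNA is copied: Rrm1, Rrm2, Tyms, Tk1, Dtymk, Dut, Dctpp1 and Dck. They were chosen by name for this role, and all 8 were found among the 18194 genes read by a probe set with 1 gene symbol. Where several probe sets read a gene, the one whose signal averaged highest stands for it. All 8 passed the filter on low values, as did 11897 genes in all.

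Arrays of total RNA were made from primary lymphomas of Eµ-myc mice, whose B cells overexpress Myc from an immunoglobulin enhancer. Every culture, controls included, lacked Suv39h1, a methyltransferase of histone H3, and carried 2 retroviral transgenes: Bcl2, an inhibitor of apoptosis, and Suv39h1-ERT2, whose protein becomes active on adding 4-hydroxytamoxifen (4-OHT). Adriamycin (ADR), also called doxorubicin, damages DNA and was given in culture. The 3 lymphomas, numbered 4146, 4936 and 5043, arose on a C57/Bl6 background. The groups were ADR+4-OHT 5 d (ADR and 4-OHT for 5 days, n = 3), ADR 5 d (ADR alone for 5 days, n = 3), big outgrowth and small outgrowth (both compounds for 5 days, then 14 days without them, n = 3 each), ADR outgrowth (ADR alone for 5 days, then 14 days without it, n = 2) and untreated (n = 3). Big and small are the sizes named in the sample titles. For lymphoma 5043 there are no values of an ADR outgrowth. No group received 4-OHT without ADR, so the activity of the fusion protein and other actions of 4-OHT cannot be told apart. Suv39h1 itself was not analysed here, since 0 probe sets carried its symbol alone.

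Ribonucleotide reductase, made of the large subunit Rrm1 and the small subunit Rrm2, turns ribonucleotides into deoxyribonucleotides and is the committed step of dNTP supply. Thymidine nucleotides need a further branch, in which Dut supplies dUMP, Tyms methylates it to dTMP with a folate cofactor, Tk1 makes dTMP from salvaged thymidine, and Dtymk phosphorylates dTMP. Many of these genes are known for transcription at the entry into S phase, so their RNA is commonly high in dividing cells and low in resting ones.

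The bases before the transcription start of 3 of the genes are shown because Rrm1 and Tk1 gave the calls described next and Rrm2 encodes the partner of Rrm1. They are RefSeq sequences of GRCm38.p6, each of 250 bases that end at the start, 5′ to 3′ on the strand of the gene: Rrm1 at chr7:102441445-102441694 (+), Rrm2 at chr12:24708004-24708253 (+) and Tk1 at chr11:117826015-117826264 (-). The start used for Tk1 lies inside the span annotated to the gene, which reaches 117826087, so the last of its bases shown are within the gene. Capitals mark 3 kinds of letters on either strand. They are CCAAT, the GC box GGGCGG, and a 7-letter core of E2F sites. That core was searched as TTCCCGC with the variant forms TTGGCGC, then also TTCGCGC, and finally TTGCCGC.
Rrm1: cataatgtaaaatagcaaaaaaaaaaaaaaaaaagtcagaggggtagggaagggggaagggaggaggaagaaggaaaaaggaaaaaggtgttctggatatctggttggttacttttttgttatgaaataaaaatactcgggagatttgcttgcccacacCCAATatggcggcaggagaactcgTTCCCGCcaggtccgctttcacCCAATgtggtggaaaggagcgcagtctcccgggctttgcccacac
Rrm2: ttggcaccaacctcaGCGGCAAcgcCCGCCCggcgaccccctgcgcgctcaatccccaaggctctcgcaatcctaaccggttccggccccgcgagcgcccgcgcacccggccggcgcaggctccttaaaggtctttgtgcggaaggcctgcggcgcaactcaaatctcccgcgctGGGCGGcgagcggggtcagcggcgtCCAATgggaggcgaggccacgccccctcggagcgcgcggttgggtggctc
Tk1: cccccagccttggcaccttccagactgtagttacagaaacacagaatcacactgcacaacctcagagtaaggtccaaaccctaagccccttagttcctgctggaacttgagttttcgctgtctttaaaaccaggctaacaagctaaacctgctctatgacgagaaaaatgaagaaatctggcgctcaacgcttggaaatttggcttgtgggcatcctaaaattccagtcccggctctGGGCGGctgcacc
In windows that ran on for 50 more bases after the start, a core of E2F sites was found for 3 of the 8 genes, against 9.574% of 32851 windows of the same length. It lay 67 bases before the start used for Rrm1, 72 before that for Dtymk and 235 before that for Rrm2. The starts used for Dtymk, Tk1, Tyms and Dut lie inside the spans annotated to these genes. The span of Dtymk, on the minus strand, reaches 93802068, so its core lies within the gene. The whole window of Dut, from 125247265, lies within the span of that gene, which begins at 125247248. The 8-letter forms, which add a T in front of each core and so overlap it, were found for 0 of the 8 genes and in 2.265% of all windows. CCAAT was present for Rrm1, Rrm2, Dtymk and Dctpp1, 4 of 8 against 37.408%, and GGGCGG for 6 of 8 against 35.658%. CACGTG, the E-box letters that Myc binds, was present for Dtymk and Tyms, 2 of 8 against 7.15%, and TTTGAA, a cell cycle element, for Dck alone, against 17.893%. These matches describe letters only, and the core letters were added to the search after the 8-letter forms had been counted.

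Before the results, 4 arrays need a caution. On the leading principal component ADR 5 d of lymphoma 4936, big outgrowth of 5043 and small outgrowth of 5043 scored 66.8, 66.3 and 58.5, and the next highest array 5.94. On the same 3 arrays Xist, which coats the inactive X, exceeded the median of its lymphoma by 5.70, 5.99 and 5.80 on the log2 scale. On ADR+4-OHT 5 d of lymphoma 4146, which scored -9.055 on the component, Xist lay at -3.49 from that median. The identity of these 4 arrays is in doubt, and in the comparisons that hold them, values of some of the genes are also given without the first 3 or without all 4. Xist also exceeded the median on the big outgrowths of 4936 (by 2.72) and 4146 (by 1.58), which were not counted as in doubt. Of the B cell markers, Cd79b ranged from 10.2 to 12.1 on the log2 scale over the arrays and Ms4a1 from 3.34 to 12.3.

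**Figure D1:**
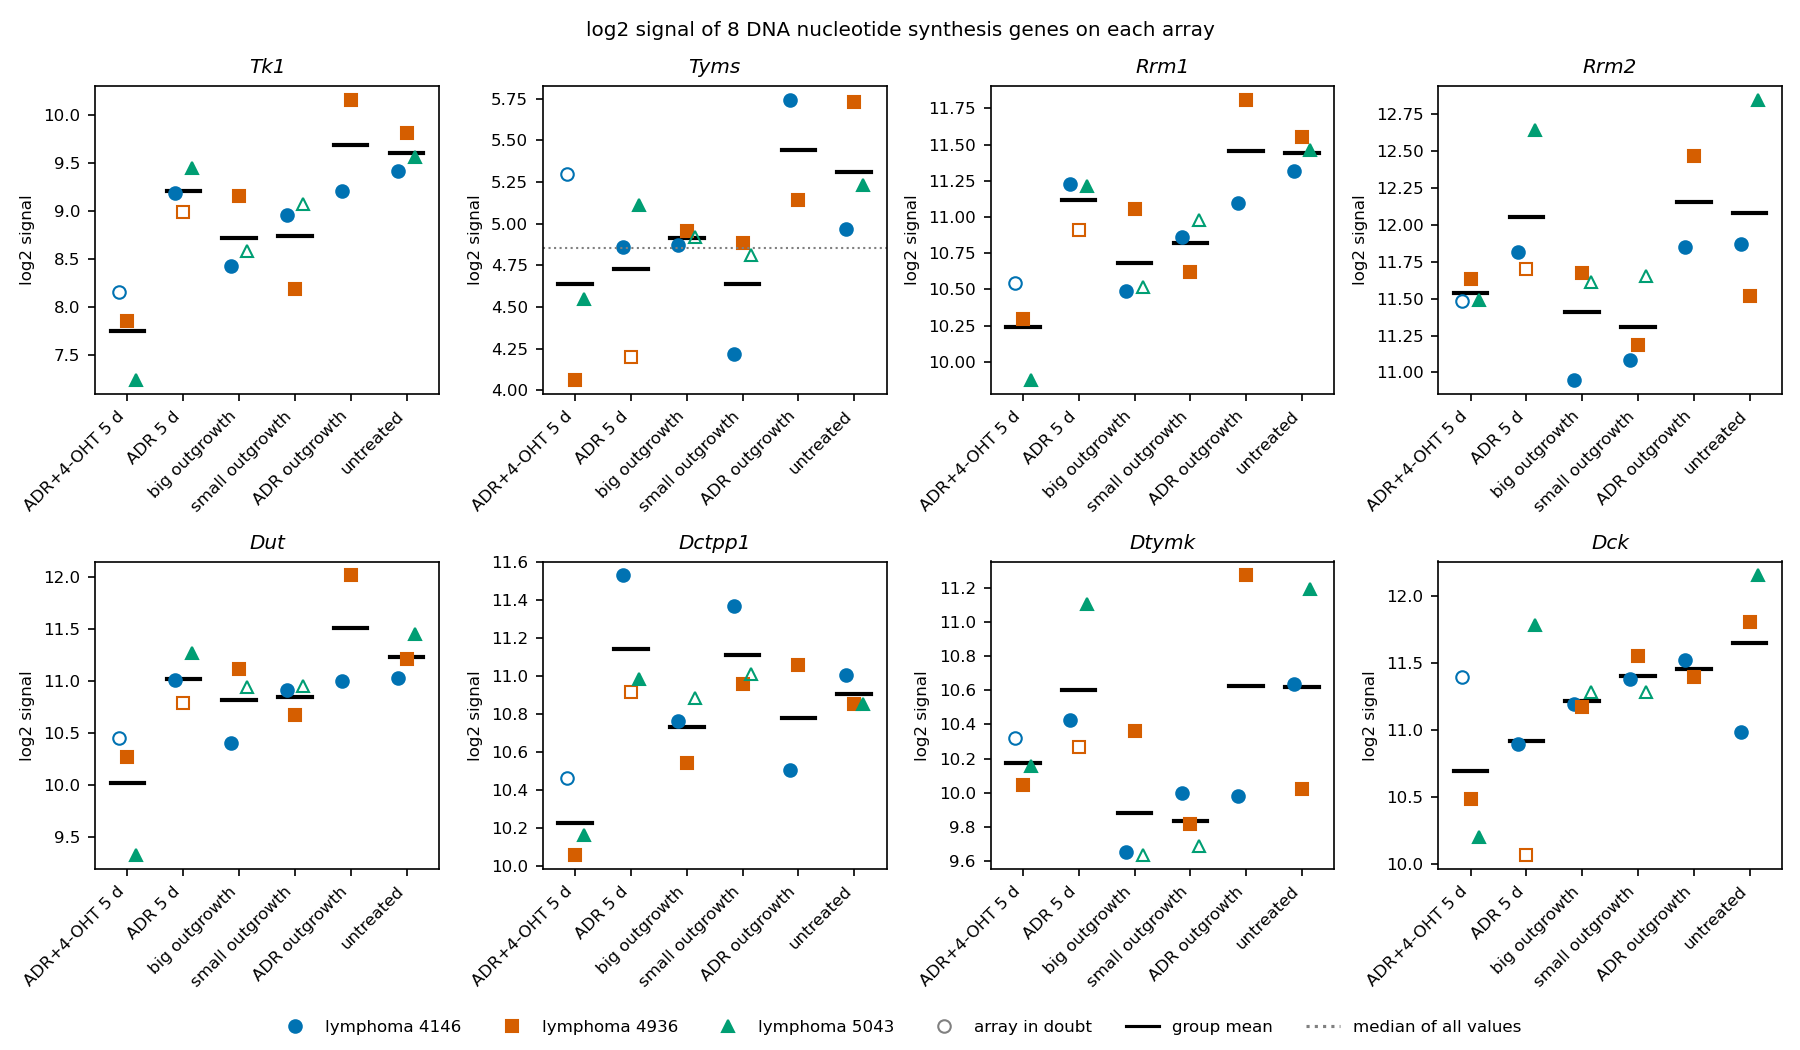
log2 signal (vertical axis, a separate range in each panel) of the 8 genes on every array, by group along the horizontal axis. Colours and shapes give the lymphoma, open symbols the 4 arrays in doubt, black lines group means and the dotted line in the Tyms panel the median of all values, 4.86. For Tk1, Rrm1, Dut and Dctpp1 the 3 ADR+4-OHT 5 d arrays lie below the 3 untreated ones.

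After 5 days of ADR with 4-OHT, Tk1 and Rrm1 fell relative to untreated cells, and the other 6 genes gave lower values that did not pass the test. Tk1, the thymidine kinase of the cytosol, had log2 signals of 8.16, 7.86 and 7.24 in ADR+4-OHT 5 d cells of lymphomas 4146, 4936 and 5043, against 9.42, 9.82 and 9.57 in untreated cells. The groups did not overlap, and the difference was -1.85 (SE 0.33, limma adjusted p = 0.0227), a signal 3.6-fold lower in the cells given both compounds. It lay below 0 in 3 of 3 lymphomas. Rrm1, the large subunit of ribonucleotide reductase that binds substrate and allosteric effectors, had 10.55, 10.30 and 9.88 in ADR+4-OHT 5 d cells, against 11.32, 11.56 and 11.46 in untreated cells. These groups did not overlap either, and the difference was -1.20 (SE 0.23, adjusted p = 0.0269), or 2.3-fold lower, again below 0 in 3 of 3 lymphomas. So 2 of the 8 genes fell, where 2.94% of all genes passed in either direction and 2.05% fell.

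The difference in Tk1 was -1.26 in lymphoma 4146, -1.96 in 4936 and -2.33 in 5043, and for Rrm1 it was -0.77, -1.26 and -1.59. Lymphoma 4146, whose ADR+4-OHT 5 d array is in doubt, thus gave the smallest difference for both genes. Without that array and the other 3 in doubt, Tk1 stood at -2.13 (adjusted p = 0.0119) and Rrm1 at -1.42 (adjusted p = 0.0111), and Dut and Dck also fell, by 1.54 (adjusted p = 0.0274) and by 1.46 (adjusted p = 0.0208) on the log2 scale. In that setting 779 genes passed in all, against 350 in the fit reported. The calls of Tk1 and Rrm1 were both lost when any 1 lymphoma, any 1 untreated array, or the ADR+4-OHT 5 d array of lymphoma 4936 or 5043 was left out. Adjusted p then ran from 0.0509 (Tk1 without the untreated array of 4146) to 0.282 (Rrm1 without lymphoma 5043), with differences of -2.14 to -1.54 for Tk1 and of -1.42 to -1.01 for Rrm1. With array quality weights 6 of the 8 genes passed here, where 10.9% of all genes did.

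Rrm2, the small subunit that holds the tyrosyl radical of the reductase, did not pass the test. It had 11.49, 11.63 and 11.49 in ADR+4-OHT 5 d cells of the 3 lymphomas, against 11.87, 11.52 and 12.85 in untreated cells. Lymphoma 4936 was higher with both compounds, so the groups overlapped, and the difference of -0.54 (SE 0.26) had an adjusted p of 0.294. Rrm2 was read by 2 further probe sets, of which one gave -1.13 (SE 0.35, adjusted p = 0.113 over all probe sets) and the other -0.65 (adjusted p = 0.285). The probe set used is of the x type, which can bind related transcripts.

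Within the thymidylate branch, Dut showed a difference of the size of that of Rrm1 with a wider error. Dut, which hydrolyses dUTP to dUMP and so keeps uracil out of DNA, had 10.46, 10.28 and 9.33 in ADR+4-OHT 5 d cells, against 11.03, 11.21 and 11.45 in untreated cells. The groups did not overlap, with lymphoma 5043 lowest among the treated and highest among the untreated arrays, and the difference was -1.21 (SE 0.32, adjusted p = 0.0676). Without the ADR+4-OHT 5 d array of 5043 it was -0.78 (adjusted p = 0.221). Dtymk, the thymidylate kinase, had 10.32, 10.05 and 10.16, against 10.64, 10.02 and 11.19 in untreated cells. Its groups overlapped, and the difference of -0.44 (SE 0.37) had an adjusted p of 0.574.

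Tyms, the thymidylate synthase, could be read only poorly by a probe set of its own. The one used lay at or above the median of all values, 4.86, on 12 of 17 arrays, and the other 3 on 0 arrays. It had 5.30, 4.06 and 4.55 in ADR+4-OHT 5 d cells, against 4.97, 5.73 and 5.23 in untreated cells, groups that overlapped, with a difference of -0.67 (SE 0.34, adjusted p = 0.311). A further probe set is annotated both to Tyms and to the pseudogene Tyms-ps and therefore stands outside the selection. Its mean was 8.66, and its difference was -1.11 (SE 0.48, adjusted p = 0.244).

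Dctpp1 and Dck act on deoxycytidine or its nucleotides. Dctpp1, a pyrophosphatase that removes dCTP and modified forms of it, had 10.46, 10.05 and 10.16 in ADR+4-OHT 5 d cells, against 11.01, 10.85 and 10.85 in untreated cells. These groups did not overlap, and the difference of -0.68 (SE 0.19) had an adjusted p of 0.0852. Dck, the kinase that salvages deoxycytidine and also activates cytarabine, had 11.39, 10.48 and 10.20 in ADR+4-OHT 5 d cells, against 10.98, 11.80 and 12.15 in untreated cells. Lymphoma 4146 was higher with both compounds and the other 2 were lower, and the difference was -0.95 (SE 0.41, adjusted p = 0.23). It was -0.54 (adjusted p = 0.593) without the ADR+4-OHT 5 d array of 5043.

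Over the 8 genes the median difference was -0.82, against 0.00 over all genes tested (0.0024 before rounding). All 8 lay below 0, as did 49.7% of all genes, and 5 had an unadjusted p under 0.05, as did 19.2% of all genes. The groups did not overlap for 4 of the 8, all lower, as for 15.8% of all genes. In these whole-culture extracts, fewer cells that make a transcript and less of it per cell cannot be told apart. The mean log2 level of 15 macrophage markers was 6.08 to 6.80 in ADR+4-OHT 5 d cells and 4.80 to 5.26 in untreated cells, and 1 of the 10 that were tested rose. For 9 B cell markers it was 8.64 to 8.95 and 8.80 to 8.89, and 0 of 9 passed. The part of other cells in the differences was not tested.

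**Figure D2:**
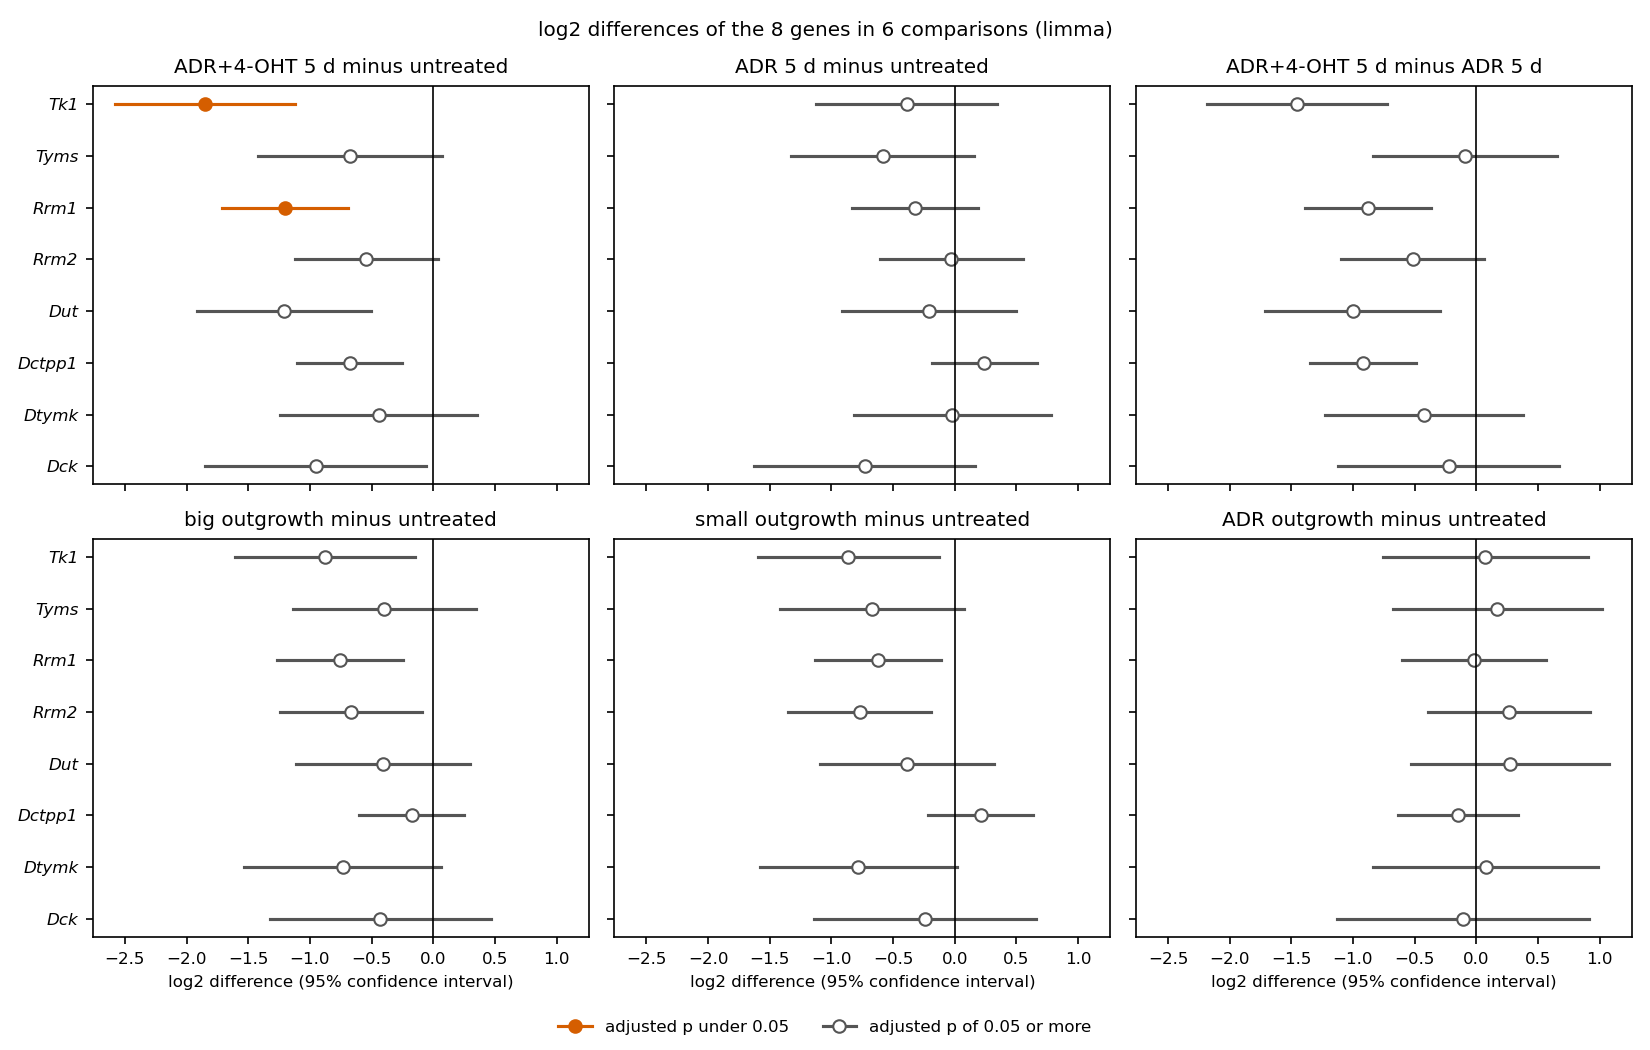
log2 differences (horizontal axis) of the 8 genes (vertical axis) in 6 comparisons, with 95% confidence intervals from limma. Orange marks an adjusted p under 0.05, reached by Tk1 (-1.85) and Rrm1 (-1.20) in ADR+4-OHT 5 d against untreated cells, and open grey symbols the rest.

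After ADR alone for 5 days, the 8 genes stayed nearer to the untreated level, and 0 of 8 passed the test, as did 0% of all genes. Below 0 were 7 of the 8 and 47.7% of all genes. At an unadjusted p under 0.05 there were 0 of the 8 and 1348 genes in all, 11.3%. Tk1 had 9.19, 8.99 and 9.45 in ADR 5 d cells, against the untreated values given above, and overlapped them with a difference of -0.39 (SE 0.33, adjusted p = 0.649). Rrm1 had 11.23, 10.91 and 11.22 and was the only 1 of the 8 whose groups did not overlap, as for 10.4% of all genes on the lower side, with a difference of -0.33 (SE 0.23, adjusted p = 0.594).

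None of the other 6 genes passed either. Dctpp1 had 11.53, 10.92 and 10.98 in ADR 5 d cells and stood at 0.24 (SE 0.19, adjusted p = 0.629). Dut (11.01, 10.79 and 11.27) differed by -0.21, Rrm2 (11.82, 11.70 and 12.64) by -0.03 and Dtymk (10.43, 10.27 and 11.10) by -0.02. The widest interval belonged to Dck, at 10.89, 10.07 and 11.78 in ADR 5 d cells, whose difference of -0.73 had a 95% confidence interval of -1.63 to 0.17. Tyms, at 4.86, 4.20 and 5.11 by its poorly read probe set, differed by -0.58. The probe set shared by Tyms and Tyms-ps lay on the other side of 0, at 0.47 (SE 0.48, adjusted p = 0.698). The array of lymphoma 4936 in this group is 1 of those in doubt, and without the 3 that stood apart the difference was -0.18 for Tk1, -0.13 for Rrm1, -0.33 for Dck and -0.33 for Tyms. Rrm2 (0.12), Dut (0.03) and Dtymk (0.12) then lay above 0, as did Dctpp1 (0.35), which left 4 of the 8 below it, against 47.7% of all genes.

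Set directly against ADR 5 d cells, ADR+4-OHT 5 d cells gave lower values for all 8 genes without a call, where 53% of all genes lay below 0. This comparison asks what 4-OHT, and with it the fusion protein, adds to ADR at 5 days. Across all genes 0% passed, and at an unadjusted p under 0.05 there were 4 of the 8 genes, against 1490 genes or 12.5%. They were Tk1 at -1.46 (SE 0.33, adjusted p = 0.183), Dut at -1.004 (SE 0.32, adjusted p = 0.256), Dctpp1 at -0.92 (SE 0.19, adjusted p = 0.165) and Rrm1 at -0.88 (SE 0.23, adjusted p = 0.221). For these 4 and for Rrm2 (-0.52, adjusted p = 0.442) the groups did not overlap, 5 of 8 against 13.5% of all genes on the lower side.

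The remaining genes in that contrast were Dtymk at -0.42 (SE 0.37), Dck at -0.22 (SE 0.41) and Tyms at -0.09 (SE 0.34), whose groups overlapped. The median of the 8 was -0.70, against -0.02 for all genes. Without the 3 arrays that stood apart all 8 still lay below 0, against 51.6% of all genes, with Tk1 at -1.67 (adjusted p = 0.281) and Rrm1 at -1.07 (adjusted p = 0.286). Without all 4 in doubt Tk1 stood at -1.96 (adjusted p = 0.0884) and Rrm1 at -1.30 (adjusted p = 0.0871). As a sign of RNA quality, the 3′ minus 5′ difference of the Actb control probe sets was 1.51, 1.168 and 1.28 in ADR+4-OHT 5 d cells. In ADR 5 d cells it was 1.08, 0.563 and 1.172, lower in each lymphoma, but the groups overlapped. Of these values 1.51 and 0.563 come from arrays in doubt. For Gapdh it was 0.568, 0.415 and 0.534, against 0.401, 0.496 and 0.366, with lymphoma 4936 going the other way. The mean level of 12 fibroblast markers was 4.75 to 5.52 in ADR+4-OHT 5 d cells and 5.61 to 6.88 in ADR 5 d cells, with 8 of 8 tested below 0, a median of -1.31 and 0 past the threshold. That of macrophage markers was 6.08 to 6.80 and 5.80 to 7.99. Neither the part of RNA quality nor that of other cells was tested. With array quality weights, 4 of the 8 fell in this contrast: Dctpp1 (adjusted p = 0.0122), Tk1 (adjusted p = 0.015), Rrm1 (adjusted p = 0.0151) and Dut (adjusted p = 0.0271), where 521 of all genes, or 4.38%, passed.

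In the outgrowths after both compounds, the mean levels of Tk1, Rrm1, Dut and Dck, by the probe sets used, lay above those of ADR+4-OHT 5 d and below the untreated ones. The poorly read Tyms did so too, by only 0.0033 in small outgrowths. Of the 8 genes only Dctpp1 passed a test. Against ADR+4-OHT 5 d cells, a second probe set of Rrm1 gave -0.29 in big outgrowths and 0.89 in small ones. A second probe set of Dut, of lower signal, gave 0.06 in big and 0.19 in small outgrowths against untreated cells. Dctpp1 had 11.37, 10.96 and 11.01 in small outgrowths, against 10.46, 10.05 and 10.16 in ADR+4-OHT 5 d cells. No array of one group reached the other, and Dctpp1 rose by 0.89 (SE 0.19, adjusted p = 0.029), with 0.91, 0.90 and 0.85 in lymphomas 4146, 4936 and 5043. That is 1 of the 8 genes, where 5.04% of all genes passed, 2.66% rose and 2.39% fell. Below 0 were 2 of 8, against 48.9% of all genes, and 4 of 8 had an unadjusted p under 0.05, against 23.4%. The call was lost without the 3 arrays that stood apart (0.88, adjusted p = 0.0946), without all 4 in doubt (0.94, adjusted p = 0.102), without any 1 lymphoma, without any 1 small outgrowth array and without the ADR+4-OHT 5 d array of 4936 or 5043. Leaving out a lymphoma or an array in this way gave an adjusted p of 0.0642 to 0.265 and a difference of 0.81 to 0.93.

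Tk1 had 8.96, 8.19 and 9.08 in small outgrowths and stood 0.99 (SE 0.33, adjusted p = 0.106) above ADR+4-OHT 5 d cells. Dut, at 10.91, 10.67 and 10.95, stood 0.83 above (SE 0.32, adjusted p = 0.152), and Rrm1, at 10.86, 10.62 and 10.98, 0.58 above (SE 0.23, adjusted p = 0.161). Without the ADR+4-OHT 5 d array of 5043 Dut stood at 0.39 (adjusted p = 0.498). Without the 3 arrays that stood apart Tk1 was at 0.73, Dut at 0.69 and Rrm1 at 0.43, and without all 4 in doubt they were at 1.06, 1.08 and 0.68. For these 3 and Dctpp1 the groups did not overlap, 4 of 8 on the higher side against 16% of all genes. Dtymk was the exception on the other side: its 9.997, 9.82 and 9.69 in small outgrowths lay below all 3 ADR+4-OHT 5 d values, 1 of 8 against 17.1% of all genes, with a difference of -0.34 (adjusted p = 0.621). It was -0.11 without the 3 arrays and turned to 0.18 without the 4. Rrm2, at 11.09, 11.18 and 11.65, differed by -0.23 (adjusted p = 0.649) and Dck, at 11.38, 11.55 and 11.28, by 0.71 (adjusted p = 0.326; 1.45, adjusted p = 0.0559, without the 4 arrays). Tyms, at 4.22, 4.89 and 4.81, differed by 0.00 (SE 0.34). With array quality weights 4 of the 8 passed, where 13.9% of all genes did. The mean level of macrophage markers was 4.81 to 5.46 in small outgrowths and 6.08 to 6.80 in ADR+4-OHT 5 d cells, and 1 of 10 fell. The part of that difference was not tested.

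Big outgrowths stood at similar distances from ADR+4-OHT 5 d cells, and 0 of the 8 genes passed, where 4.02% of all genes did and 2782 (23.4%) had an unadjusted p under 0.05. Tk1, at 8.43, 9.16 and 8.59 in big outgrowths, was 0.97 above (adjusted p = 0.11), Dut, at 10.41, 11.12 and 10.95, 0.80 above (adjusted p = 0.161), and Dctpp1, at 10.76, 10.54 and 10.88, 0.50 above (adjusted p = 0.148). Tk1 and Dctpp1 were the 2 genes whose groups did not overlap, as for 16% of all genes on the higher side. Rrm1, at 10.49, 11.05 and 10.52, was 0.45 above, with lymphoma 4146 at the level of its ADR+4-OHT 5 d array. In that lymphoma Dut differed by only -0.05. Dck differed by 0.52, Tyms by 0.28, Rrm2 by -0.13 and Dtymk by -0.29. Of the 8 genes, 2 lay below 0, against 51.3% of all genes, and 3 had an unadjusted p under 0.05. Without the 4 arrays in doubt 0 of the 8 lay below 0, against 53.9% of all genes, with Tk1 at 1.28 (adjusted p = 0.155) and Dck at 1.16 (adjusted p = 0.121). With array quality weights 2 of the 8 passed, where 16.7% of all genes did.

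Between the sizes, 0 of the 8 genes differed by the test, as did 0% of all genes, with 1243 genes (10.4%) but 0 of the 8 at an unadjusted p under 0.05, and 5 of 8 against 53.3% of all genes below 0. The difference of big minus small outgrowths was -0.01 for Tk1 (95% confidence interval -0.75 to 0.72), -0.02 for Dut, -0.14 for Rrm1, 0.10 for Rrm2, 0.28 for Tyms and 0.05 for Dtymk. Without the 3 arrays that stood apart it was 0.22 for Tk1 and 0.03 for Rrm1, so that 3 of 8 then lay below 0, against 55.8% of all genes. Dctpp1 gave the lowest p, with a difference of -0.38 (SE 0.19, adjusted p = 0.535). Its groups did not overlap, nor did those of Dck, which had 11.19, 11.17 and 11.28 in big outgrowths and differed by -0.19, which makes 2 of 8 against 12.8% of all genes on the lower side. The interval of Dtymk ran from -0.75 to 0.85, so that differences of such a size were not detectable with 3 arrays a group.

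Relative to untreated cells, both outgrowths gave mostly lower values. In small outgrowths 0 of 8 passed, as did 0% of all genes, 987 of which (8.3%) had an unadjusted p under 0.05. Among the 8, 3 did: Tk1 at -0.86 (adjusted p = 0.565), Rrm2 at -0.77 (adjusted p = 0.55) and Rrm1 at -0.62 (adjusted p = 0.565). Below 0 were 7 of 8, against 51.3% of all genes, with Dctpp1 above it at 0.21 and Dtymk at -0.78, Tyms at -0.67, Dut at -0.39 and Dck at -0.24, and for 5 of 8 the groups did not overlap on the lower side, against 9.2% of all genes. In big outgrowths 0 of 8 passed, where 0.412% of all genes did and 0.126% fell, and 3 had an unadjusted p under 0.05, against 16.3% of all genes, with Tk1 at -0.88 (adjusted p = 0.24), Rrm1 at -0.76 (adjusted p = 0.16) and Rrm2 at -0.67 (adjusted p = 0.253). The rest stood at -0.73 (Dtymk), -0.43 (Dck), -0.41 (Dut), -0.40 (Tyms) and -0.17 (Dctpp1). All 8 lay below 0, as did 54.1% of all genes, and groups did not overlap for 3, against 16.7%. Without the 4 arrays in doubt Tk1, Rrm1 and Rrm2 stood at -1.07, -0.74 and -0.72 in small outgrowths and at -0.85, -0.71 and -0.55 in big ones. With array quality weights 2 of the 8 passed in big outgrowths, where 9.39% of all genes did.

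The ADR outgrowths, with only 2 arrays, gave fitted values close to the untreated ones. For each of the 8 genes the 2 lymphomas differed from untreated cells in opposite directions. The differences in lymphomas 4146 and 4936 were -0.65 and 1.25 for Dtymk, 0.77 and -0.59 for Tyms, and -0.02 and 0.95 for Rrm2. Tk1 had 9.22 and 10.16 in ADR outgrowths of lymphomas 4146 and 4936, and the fitted difference from untreated cells was 0.07 (SE 0.38). Rrm1, at 11.10 and 11.81, differed by -0.02 (SE 0.27), and Dut, at 10.997 and 12.01, by 0.27 (SE 0.37). The arrays of the 2 lymphomas were furthest apart for Dtymk, at 9.98 and 11.27, and closest for Dck, at 11.52 and 11.39. Rrm2 differed from untreated cells by 0.27, Tyms by 0.17, Dtymk by 0.08, Dck by -0.11 and Dctpp1 by -0.15. In this comparison 0 of 8 and 0% of all genes passed, while 534 genes (4.49%) and 0 of the 8 had an unadjusted p under 0.05, and 3 of 8 lay below 0, against 48.3%. Against ADR 5 d cells the count was likewise 0 of 8 and 0%, with 462 genes (3.88%) and 0 of the 8 at an unadjusted p under 0.05, and the largest difference was 0.76 for Tyms (adjusted p = 1). That value comes from the poorly read probe set of Tyms, and the probe set shared by Tyms and Tyms-ps gave 0.07 (SE 0.55). Dck differed by 0.63, Dut by 0.48, Tk1 by 0.46, Rrm1 by 0.31, Rrm2 by 0.29, Dtymk by 0.09 and Dctpp1 by -0.39. With the 3 arrays that stood apart left out, Dck was at 0.23 and Tk1 at 0.18.

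Small outgrowths against ADR outgrowths compare cultures with and without earlier 4-OHT after the same time. The titles of the ADR outgrowths name no size, so that 4-OHT and the choice by size cannot be told apart. By the test 0 of 8 and 0% of all genes passed, with 1598 genes (13.4%) at an unadjusted p under 0.05, and 7 of 8 lay below 0, against 50.6%. Rrm2, at 11.09, 11.18 and 11.65 in small outgrowths, against 11.85 and 12.47 in ADR outgrowths, had the lowest p of the 8 and differed by -1.04 (SE 0.30, unadjusted p = 0.00511, adjusted p = 0.259). Tk1 followed at -0.94 (adjusted p = 0.333) and Rrm1 at -0.61 (adjusted p = 0.36), both with an unadjusted p under 0.05. Dtymk stood at -0.86, Tyms at -0.84, Dut at -0.66, Dck at -0.14 and Dctpp1 at 0.36. On leaving out the 4 arrays in doubt Rrm2 was at -1.02, Tk1 at -1.11 and Rrm1 at -0.71, and Dck turned to 0.01. For 5 of 8 the groups did not overlap, all lower, as for 17.2% of all genes. Big outgrowths against ADR outgrowths gave 0 of 8, where 0.941% of all genes passed, 0.521% fell, 0.42% rose and 2511 (21.1%) had an unadjusted p under 0.05. All 8 lay below 0, against 51.7% of all genes. Rrm2 (-0.93, adjusted p = 0.121), Rrm1 (-0.74, adjusted p = 0.151) and Tk1 (-0.95, adjusted p = 0.187) had the lowest p values, and groups did not overlap for 5 of 8, against 23.7%. The others stood at -0.81 (Dtymk), -0.68 (Dut), -0.57 (Tyms), -0.32 (Dck) and -0.03 (Dctpp1). Leaving out the 4 arrays in doubt put Rrm2 at -0.85 (adjusted p = 0.217), Rrm1 at -0.68 (adjusted p = 0.183) and Tk1 at -0.89 (adjusted p = 0.236). The mean level of fibroblast markers was 6.58 to 7.50 in big outgrowths and 4.29 to 4.70 in ADR outgrowths, where 6 of 8 tested rose, with a median of 4.13. That of B cell markers was 8.57 to 8.96 and 7.59 to 8.41, with 9 of 9 above 0, a median of 0.57 and 0 past the threshold. Their part in the differences was not tested.

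The difference between these contrasts, small minus ADR outgrowths less ADR+4-OHT minus ADR at 5 days, was tested as an interaction. None of the 8 passed, nor did any of all genes (0%), 1129 of which (9.49%) had an unadjusted p under 0.05. Dctpp1 had the largest value, 1.27 (SE 0.30, unadjusted p = 0.00111, adjusted p = 0.296), with a difference of -0.92 at 5 days and 0.36 in outgrowths, where it was 0.87 in lymphoma 4146 and -0.10 in 4936. Tyms stood at -0.75, Rrm2 at -0.52 and Tk1 at 0.52, with adjusted p of 0.657, 0.692 and 0.752, and Dtymk at -0.43, Dut at 0.34, Rrm1 at 0.27 and Dck at 0.09. Without the 4 arrays in doubt, a setting chosen for this test after the data were seen, Dctpp1 was at 1.47 (adjusted p = 0.167), Dck at 1.16 (adjusted p = 0.306) and Tyms at -0.12, and Dtymk turned to 0.11.

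The order of the groups by mean level differed between genes. By the probe sets used, ADR+4-OHT 5 d was lowest for Tk1, Tyms, Rrm1, Dut, Dctpp1 and Dck, and small outgrowths were lowest for Rrm2 and Dtymk. A further probe set of Rrm1, of Rrm2 and of Dtymk put big outgrowths lowest, at means of 7.90, 8.58 and 8.96. The other probe sets that passed the filter had the same lowest group as the one used. For Tk1 the order from low to high was ADR+4-OHT 5 d (7.76 ± 0.47, SD, n = 3), big (8.73 ± 0.38) and small outgrowths (8.74 ± 0.48), ADR 5 d (9.21 ± 0.23), untreated (9.60 ± 0.20) and ADR outgrowths (9.69 ± 0.67, n = 2). In that order the steps from big to small outgrowths, from small outgrowths to ADR 5 d and from untreated to ADR outgrowths were within the larger SD of the pair.

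For Rrm1 the order was the same, from 10.24 ± 0.34 (SD) in ADR+4-OHT 5 d cells to 11.44 ± 0.12 in untreated cells and 11.45 ± 0.50 in ADR outgrowths. Its steps from big to small outgrowths and from untreated to ADR outgrowths were within the spread. For Dtymk no step exceeded the spread. Dctpp1 had ADR 5 d highest, at 11.14 ± 0.34, and its only step beyond the spread was the lowest, from ADR+4-OHT 5 d (10.23 ± 0.21) to big outgrowths (10.73 ± 0.17). Rrm2 and Dck had 1 such step each, from ADR+4-OHT 5 d to ADR 5 d and from big to small outgrowths. Dut and Tyms had 1 each as well, from ADR+4-OHT 5 d to big outgrowths and from big outgrowths to untreated.

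For several genes the size of a difference depended on the probe set. Rrm1 was read by a second probe set, which had 8.37, 8.18 and 7.16 in big outgrowths, against 9.69, 9.88 and 9.66 in untreated cells. All 3 big outgrowths lay more than 1 log2 unit below every untreated array, and the difference was -1.84 (SE 0.31, adjusted p = 0.0268 over all probe sets), where the probe set used gave -0.76 (SE 0.24, adjusted p = 0.139 in the same fit). Against ADR outgrowths it was -1.75 (adjusted p = 0.0333), and against small outgrowths, which had 9.15, 8.96 and 9.15, it was -1.18 (SE 0.31, adjusted p = 0.131). Both calls were lost without the 3 arrays that stood apart, at -1.54 (adjusted p = 0.0633) against untreated cells and -1.46 (adjusted p = 0.0708) against ADR outgrowths, a setting that was added for single probe sets after the data were seen.

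The probe sets of Rrm2 differed too. One of its other probe sets had 8.28, 9.11 and 8.35 in big outgrowths, against 9.85, 9.90 and 10.82 in untreated cells, a difference of -1.61 (SE 0.35, adjusted p = 0.0573), where the probe set used gave -0.67 (SE 0.27). Against ADR outgrowths, at 9.86 and 10.87, it fell by 1.87 (adjusted p = 0.0371), a call that was lost without the 3 arrays (-1.67, adjusted p = 0.097). The remaining probe set of Rrm2 lay near the one used, at -0.71 (adjusted p = 0.258) against untreated cells and -1.04 (adjusted p = 0.116) against ADR outgrowths. In ADR+4-OHT 5 d against untreated cells both Rrm1 probe sets fell, the second by 1.55 (adjusted p = 0.0323), and a second probe set of Dck gave -1.64 (SE 0.39, adjusted p = 0.0559), where the one used gave -0.95 and another -0.72 (adjusted p = 0.345). All 3 probe sets of Dck fell when the 4 arrays in doubt were left out (adjusted p = 0.00612, 0.0269 and 0.0184). Probe sets read different stretches of a transcript, and the 3′ minus 5′ difference of Actb was 1.50, 1.76 and 1.60 in big outgrowths, against 1.39, 1.65 and 1.41 in untreated cells. That of Gapdh was 0.453, 0.459 and 0.796, against 0.515, 0.479 and 0.54, higher only in lymphoma 5043, whose big outgrowth is in doubt. The mean level of 12 fibroblast markers was 6.58 to 7.50 in big outgrowths and 4.39 to 4.79 in untreated cells, where 5 of 8 tested rose. The part of RNA quality or of other cells in these differences was not tested.

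**Figure D3:**
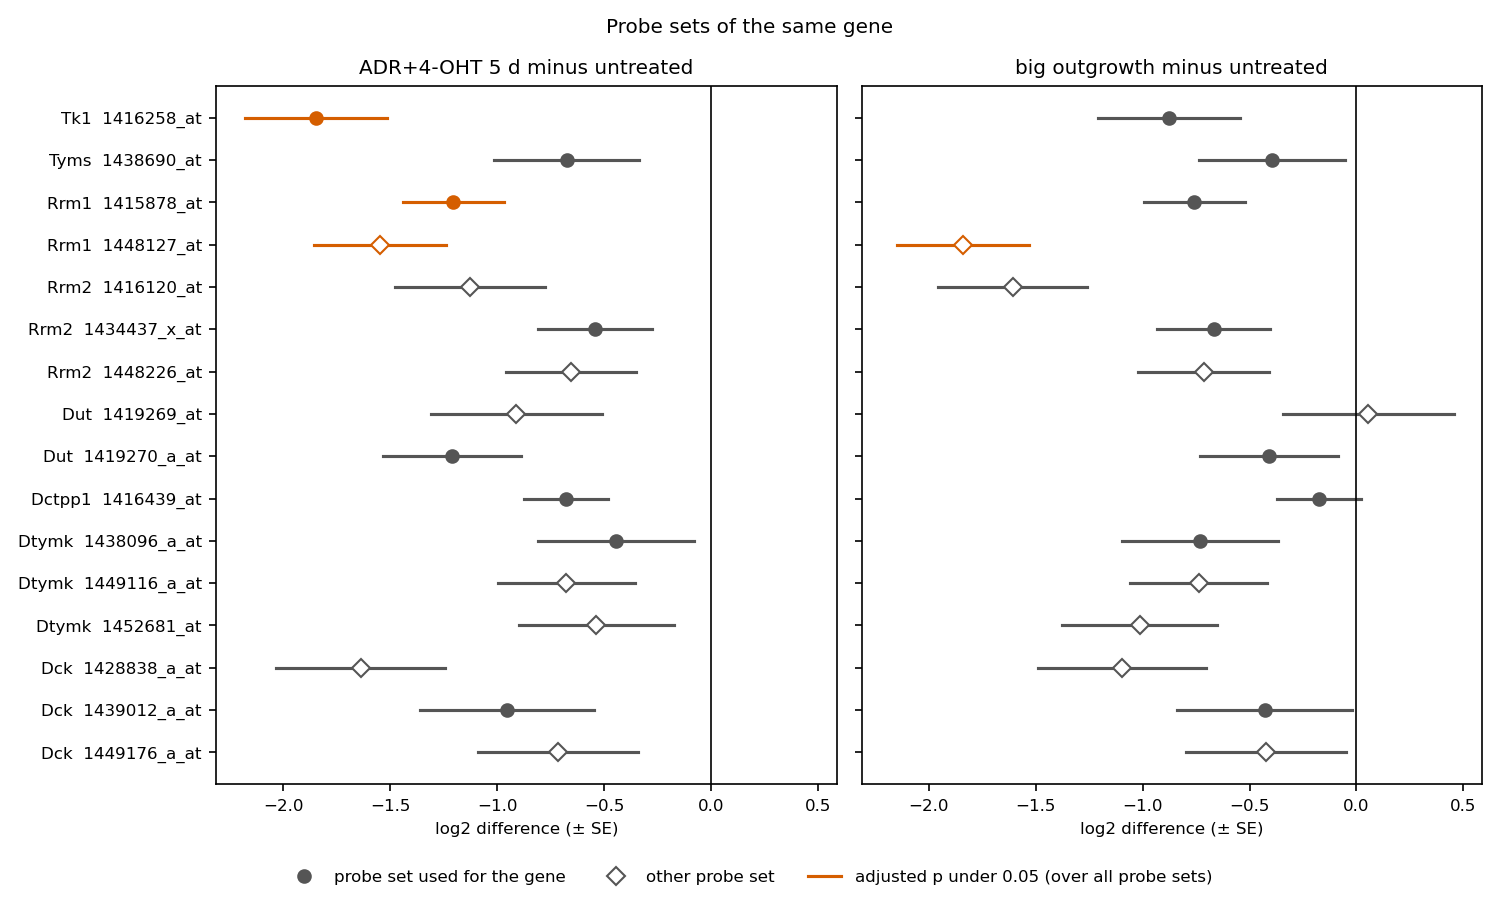
log2 difference with its SE (horizontal axis) for each probe set of the 8 genes that passed the filter (vertical axis), in ADR+4-OHT 5 d and big outgrowth against untreated cells. Circles are the probe sets used and diamonds the others, and orange marks an adjusted p under 0.05 over all probe sets, reached by Tk1 and both Rrm1 probe sets on the left and by the second Rrm1 probe set (-1.84) on the right.

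Across the 17 arrays, values centred within each lymphoma varied together most closely for Tk1, Rrm1 and Dut. Pearson r was 0.981 for Tk1 with Rrm1, 0.941 for Tk1 with Dut and 0.926 for Rrm1 with Dut. Rrm2 paired with Dtymk at 0.902 and with Rrm1, its partner in the enzyme, at 0.749. Over the 28 pairs r ran from 0.002, for Tyms with Dctpp1, to 0.981, with a median of 0.594, and 6 pairs exceeded 0.7. Without the 4 arrays in doubt the median over 13 arrays was 0.655. The arrays share groups, normalisation and the removal of lymphoma offsets, so these values describe the arrays and carry no test.

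**Figure D4:**
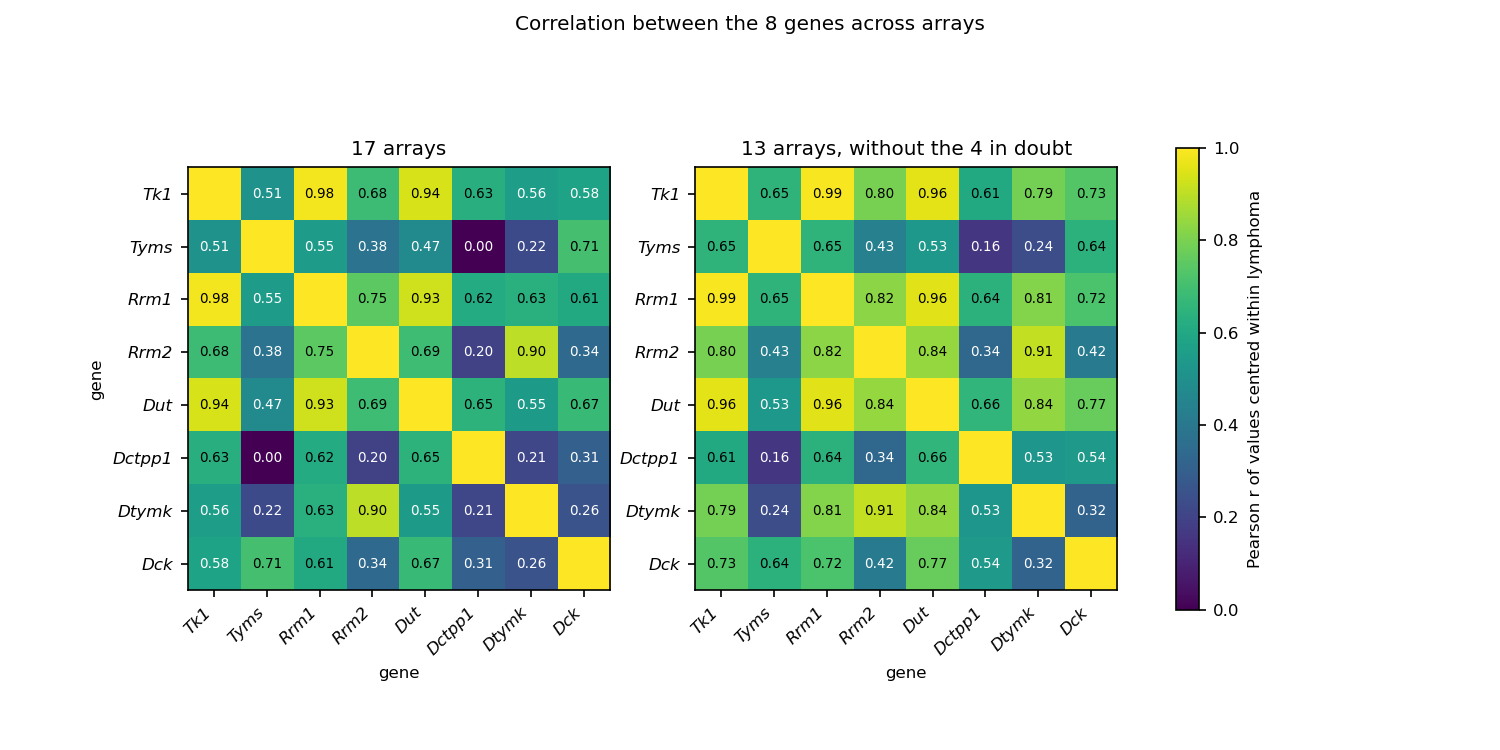
Pearson r (colour and number) between each pair of the 8 genes over 17 arrays on the left and over the 13 not in doubt on the right, from log2 values centred within lymphoma. Tk1, Rrm1 and Dut form the closest group and Rrm2 and Dtymk the closest pair outside it, and Tyms with Dctpp1 is lowest at 0.002.

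The tested genes most like each of the 8 were found by the same r over 17 arrays. Tk1 was most like Hmgb2, a chromatin protein (0.97), Shcbp1 (0.967) and Lig1, the DNA ligase of replication (0.964). Rrm1 was most like Lig1 (0.962), Suv39h2, the paralogue of the deleted Suv39h1 (0.96), and Chek1, a checkpoint kinase (0.958). Dut was most like Birc5, the mitotic protein survivin (0.974), Oard1 (0.957) and Spc24 (0.947), and Rrm2 like Zmat2 (0.942), Casp8ap2 (0.938) and Wdhd1 (0.925). Dck and Tyms both had Rad51c, a protein of DNA recombination, among their nearest genes (0.92 and 0.811), Dck with Blm (0.884) and Spag5 (0.88), and Tyms with 4930456A14Rik (0.861) and Ticrr (0.821). For Dtymk the nearest were Ddx39b (0.93), 2810408B13Rik (0.926) and Rbmxl1 (0.916), and for Dctpp1 Cct5, a chaperonin subunit (0.894), Vkorc1l1 (0.877) and Mtfp1 (0.874).

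Among the wider nucleotide genes, calls in ADR+4-OHT 5 d against untreated cells were spread over lists of related steps. In the folate cycle that serves Tyms, 2 of 5 genes tested fell: Shmt2, the mitochondrial serine hydroxymethyltransferase, by 1.13 (SE 0.20, adjusted p = 0.0209), and Mthfd2, a mitochondrial folate dehydrogenase, by 0.96 (SE 0.19, adjusted p = 0.0279), with a list median of -0.62. In purine synthesis 1 of 11 fell, Gmps, the GMP synthetase, by 0.69 (SE 0.16, adjusted p = 0.0462), with a median of -0.16. In pyrimidine synthesis 0 of 5 passed, and Dhodh, the mitochondrial dihydroorotate dehydrogenase, stood at -0.90 (SE 0.22, adjusted p = 0.0526).

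The lists of salvage and breakdown lay close to all genes. Of 12 genes of dNTP salvage, kinases and alternative subunits 0 passed, with a median of 0.05 and Rrm2b, the p53-inducible alternative to Rrm2, at -0.61 (adjusted p = 0.224). For base and nucleoside salvage it was 0 of 10, with a median of 0.03 and Adk, adenosine kinase, at -0.50 (adjusted p = 0.284). For dNTP breakdown and pool cleaning it was 0 of 11, with a median of 0.01 and Nt5e, the ectonucleotidase CD73, at 0.63 (adjusted p = 0.364). Of 21 replication genes, 5 fell and all 21 lay below 0, with a median of -0.97, which is the list nearest to the -0.82 of the 8 genes. The largest falls were those of Gins1, a subunit of the replicative helicase (-1.76, adjusted p = 0.0209), Mki67, the proliferation marker Ki-67 (-1.65, adjusted p = 0.04), and Pola1, the catalytic subunit of DNA polymerase alpha (-1.65, adjusted p = 0.0133).

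**Figure D5:**
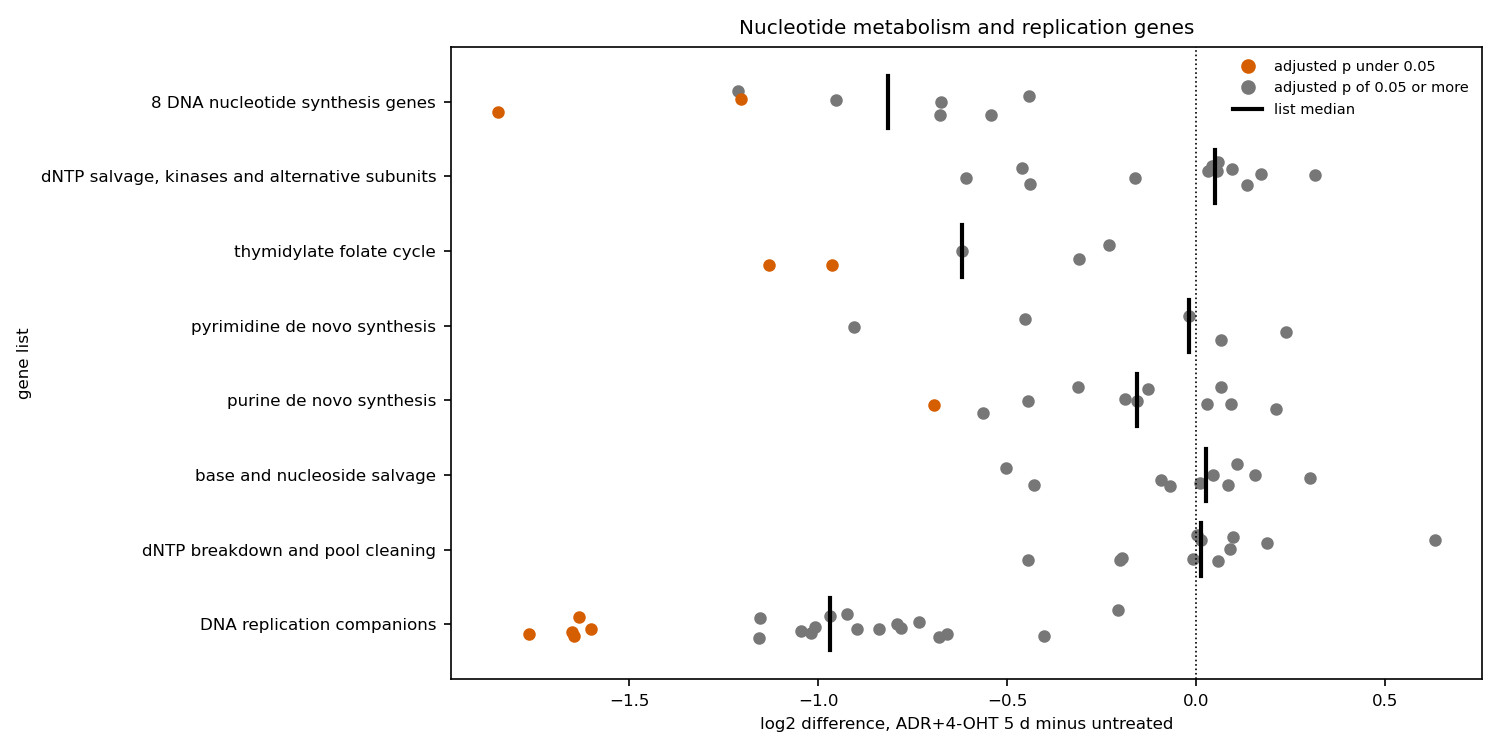
log2 difference of ADR+4-OHT 5 d minus untreated cells (horizontal axis) for each gene tested, by list (vertical axis), with list medians as black bars and an adjusted p under 0.05 in orange. The medians of the 8 genes (-0.82), the folate cycle (-0.62) and the replication genes (-0.97) lie left of those of the other lists, which run from -0.16 to 0.05.

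In small outgrowths against ADR+4-OHT 5 d cells, Dhodh rose by 1.20 (SE 0.22, adjusted p = 0.0186), the 1 call among 5 pyrimidine genes, and of 21 replication genes Pola1 rose by 1.11 (adjusted p = 0.0323) and Pold1, a subunit of DNA polymerase delta, by 1.03 (adjusted p = 0.0356). The replication list had a median of 0.29, against 0.65 for the 8 genes and 0.01 for all genes. Dctpp1, with Dhodh, Pola1 and Pold1, thus made up the 4 calls among all the nucleotide and replication genes in that contrast, all of them higher. By list these were 1 of 8, 1 of 5 and 2 of 21 genes, where 5.04% of all genes passed and 2.66% rose. The other lists gave 0 of 12 (dNTP salvage), 5 (folate cycle), 11 (purine synthesis), 10 (base salvage) and 11 (breakdown).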

How the data were processed

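Total RNA of 18 samples was read on Affymetrix mouse arrays. The values of the 45101 probe sets, deposited by the authors, are log2 signals; RMA and Partek are named, without versions, per the submitters' processing notes. Every probe set has the same median in each of the 3 lymphomas (tolerance 1e-06), so lymphoma offsets had been removed before deposit. Of 18 value columns 1 held no values and was not used. Precision is limited by the number of arrays, with a median SE of 0.223 for 3 against 3.

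By the platform annotation 34958 probe sets carried 1 symbol and were used, while 932 with several and 9211 with none were not. Coordinates and promoters are those of RefSeq for GRCm38.p6. The probe set of highest average signal stood for a gene, and 11897 genes that reached the overall median, 4.86, on 3 or more arrays were tested. The fit (limma 3.58.1, R 4.3.3) had a term for each of 6 groups and an additive block for lymphoma, with Benjamini-Hochberg adjustment over all genes at 0.05. The treatment protocol in the labels pairs arrays by lymphoma. On the values, removed offsets leave no check: the median correlation of group-centred arrays was -0.117 within a lymphoma (40 pairs) and 0.058 between lymphomas (80 pairs). The method was tested on simulated data. The replicates of a group are the separate lymphomas.

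All 8 genes are named in every main comparison. In each other list the rule names up to 3 passing genes with the largest change, or the largest alone as a value, and for likeness the 3 genes with the highest r. Members and lists were chosen with earlier results of these data known. Some genes of the lists are not reported here. The T cell marker list gave 0 of 5 tested genes past the threshold in ADR+4-OHT 5 d against untreated cells. Alternatives were the fit without the block, other filters, all probe sets, other normalisations, a variance trend, array weights, and leaving out the arrays in doubt, each lymphoma or each array.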

Additional observations from a re-analysis of the deposited data

How the results depend on the processing

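Of 2856 recomputed differences of the 8 genes over 96 results, 0 reversed a called value, 26 lost and 23 gained a call, and 120 changed sign while past the threshold in neither fit. With array quality weights the number of the 8 genes past the threshold became 6 in ADR+4-OHT 5 d against untreated cells (2 in the fit reported), 4 in ADR+4-OHT 5 d against ADR 5 d (0), 2 in big outgrowth against untreated (0), 4 in small outgrowth against ADR+4-OHT 5 d (1) and 2 in big outgrowth against ADR+4-OHT 5 d (0), while all genes gave 1301, 521, 1117, 1659 and 1986 calls of 11897. Without the 4 arrays in doubt it was 4 in ADR+4-OHT 5 d against untreated cells and 0 in small outgrowth against ADR+4-OHT 5 d, and without the 3 arrays that stood apart 0 in the last of these. With the mean over probe sets it was 1 in big outgrowth against ADR outgrowth and 1 against untreated, and with each probe set on its own 2 and 1. Leaving out replicates gave 0 to 3 in ADR+4-OHT 5 d against untreated cells and 0 to 1 in small outgrowth against ADR+4-OHT 5 d. Without the lymphoma block, Dut also fell, which made 3 in ADR+4-OHT 5 d against untreated cells, with 623 genes called in all instead of 350. Lymphoma offsets had been removed from the values before deposit, so a fit without the block is not a test of unpaired values. The causes were not tested. Over all genes that comparison gave 779 calls without the 4 arrays, 212 with the mean over probe sets, and 0, 7 and 0 without lymphomas 4146, 4936 and 5043, where fewer samples are fitted. Tyms lay near the median of all values, so its differences are poorly measured.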

Other observations

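Outside the 8 genes, pyrimidine salvage gave 1 call. Cda, the cytidine deaminase that turns cytidine and deoxycytidine into uridine and deoxyuridine, rose by 1.77 on the log2 scale in big outgrowths relative to ADR+4-OHT 5 d cells (SE 0.44, limma adjusted p = 0.0477, 3 of 3 lymphomas). It was the 1 call among the 12 genes of dNTP salvage, kinases and alternative subunits in that comparison, where 4.02% of all genes passed and 2% rose. Against untreated cells its difference was 1.81 (adjusted p = 0.099), and against small outgrowths 1.35 (adjusted p = 0.305). Upp1, the uridine phosphorylase, had a difference of 1.45 in big outgrowths against untreated cells with an SE of 0.85 (adjusted p = 0.41). Fibroblast markers were also higher in big outgrowths than in ADR+4-OHT 5 d cells, with 5 of 8 tested past the threshold, and their part in the Cda result was not tested.

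The probe set annotated to both Tyms and Tyms-ps had 8.44, 7.90 and 7.28 in ADR+4-OHT 5 d cells, against 9.46, 10.02 and 8.89 in ADR 5 d cells. The groups did not overlap, and the difference of -1.58 (SE 0.48) had an adjusted p of 0.239.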
